A study of Mus musculus with 16 samples.

Results

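The circadian clock of mammalian cells was followed here through 10 of its genes in mouse skeletal muscle: Arntl (which encodes BMAL1), Clock, Per1, Per2, Per3, Cry1, Cry2, Nr1d1, Nr1d2 and Dbp. They were picked by symbol from the 47643 genes of the deposited table, and all 10 passed the filter on low values that left 10628 genes for testing. The samples were tibialis anterior muscles, from the lower hindlimb, of 16 C57BL6/J mice labelled male, in 4 groups of 4 mice: WT at 6 months, UBR4 mKO at 6 months, WT at 24 months and UBR4 mKO at 24 months. Every mouse carried floxed alleles of Ubr4, which encodes a large ubiquitin ligase, and every mouse was treated with tamoxifen as a young adult. UBR4 mKO mice also carried a tamoxifen-inducible Cre under the ACTA1 promoter, which is active in skeletal myofibers, so the other cells of the muscle were not targeted, and WT mice were siblings without Cre. The mice were kept in alternating light and dark, and the time of day at which the muscles were taken is not given in the sources used here.

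The clock runs as a loop of transcription. BMAL1 and CLOCK bind E-box sequences and switch on the Per, Cry and Nr1d genes as well as Dbp, after which PER and CRY proteins shut BMAL1 and CLOCK down again, and the nuclear receptors REV-ERBα and REV-ERBβ (from Nr1d1 and Nr1d2) silence Arntl through elements called ROREs. In muscle, as in most tissues, Arntl therefore peaks at roughly the opposite time of day from Dbp, Per3 and Nr1d1, with Per2 and then Cry1 following, so that a shift in collection time moves the activators one way and most of the repressors the other.

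Some elements through which the loop is wired can be read in the promoters of its genes. RefSeq start sites of 9 of the 10 genes (all but Per2) gave 13 windows on GRCm38.p6, from 250 bases before to 50 bases after the start, which were searched on both strands. The 5 stretches here were chosen because each holds a motif that ties one arm of the loop to another. They run 5′ to 3′ along the strand of the gene, and capitals mark the motif.
Arntl (chr7:113207528-113207557, plus strand, 18 bases past the start): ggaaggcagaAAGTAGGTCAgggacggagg
Per1 (chr11:69098763-69098837, plus strand): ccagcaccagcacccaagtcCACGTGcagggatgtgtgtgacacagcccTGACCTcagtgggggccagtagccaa
Cry1 (chr10:85185089-85185153, minus strand): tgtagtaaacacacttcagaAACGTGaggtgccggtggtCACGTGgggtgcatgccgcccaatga
Nr1d1 (chr11:98775380-98775425, minus strand): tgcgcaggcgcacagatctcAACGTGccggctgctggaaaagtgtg
Per3 (chr4:151044796-151044890, minus strand): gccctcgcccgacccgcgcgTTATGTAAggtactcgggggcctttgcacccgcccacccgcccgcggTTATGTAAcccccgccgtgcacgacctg

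In Arntl the capitals are the long RORE (the core AGGTCA preceded by AANT), which was present in 0.219% of all 32851 promoter windows and in none of the other 8 clock genes searched. The short core alone was found in 16.3% of windows and also in Clock, Per1 (as its reverse complement TGACCT) and Nr1d2. Per1 and Cry1 held the E-box CACGTG, found in 7.15% of windows, and Cry1, Cry2 and Nr1d1 held the E-box variant CACGTT, shown here as its reverse complement AACGTG and found in 4.68%. Per3 held the D-box TTANGTAA at 2 places, against 2.32% of windows with at least 1. This is the element bound by DBP and its relatives. The cAMP response element TGACGTCA, in 1.79% of windows, was in none of the clock windows searched. The windows of Dbp held none of these motifs, and those of Arntl, Clock, Per3, Nr1d2 and Dbp held neither E-box. These matches describe letters within short windows and do not show that a factor was bound.

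Before the clock genes, the samples themselves were checked. The summed TPM (a gene's reads divided by transcript length and scaled to 1 total in all samples) of 5 myofiber markers was 58485 to 65157 in young WT and 67916 to 80717 in the other 3 groups, and all 5 were called higher with age in WT, against 24% of all genes, or 1 (Myh4), against 4.44%, after median-of-ratios scaling, which brings the typical gene to the same level in all samples. The part of this in the levels of the clock genes was not tested. Ubr4 was 12.2 ± 2.82 TPM (SD, n = 4) in WT and 5.49 ± 0.749 in UBR4 mKO at 6 months, and 18.3 ± 1.89 and 9.14 ± 4.33 at 24 months, with no overlap between genotypes at either age. The labels call all mice male, but the RNA of the 6-month libraries did not match that. Xist, the RNA that silences an X chromosome in female cells, was 2.91 to 12.97 TPM in the 4 WT libraries at 6 months and 0.711 to 23.8 TPM in UBR4 mKO, against at most 0.0252 TPM in all 8 libraries at 24 months. The summed TPM of 4 Y-linked genes was 4.36 to 25.5 in WT at 6 months and 34.6 to 59.6 in both genotypes at 24 months. In UBR4 mKO at 6 months it was 45.9, 30.7 and 41.9 in mice 1 to 3 and 0.181 in the library labelled mouse 4, where Xist was highest. The libraries of the younger mice thus held RNA of both sexes in varying proportions, or of a female, and neither age nor, at 6 months, genotype can be fully told apart from this. Leaving out that library, or adding the Y-linked sum as a covariate, changed no call of a clock gene in any comparison.

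TPM also depends on what the other genes take up. The 37 genes of the mitochondrial genome held 52.6% to 59.7% of all TPM in WT at 6 months but 46.1% to 51.7% in the other 3 groups. With this, the median gene was higher by 0.33 (log2) in UBR4 mKO than in WT at 6 months and by 0.26 in WT at 24 than at 6 months. Each clock gene is therefore read against the median of all genes tested, and is also given after median-of-ratios scaling, which brings the median gene in both comparisons to within 0.02 of 0.

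The levels of the clock genes differed far more between genes than between groups. As TPM corrects for transcript length, they can be ranked: over the 16 mice the mean was 61.7 TPM for Dbp, 54.1 for Nr1d1, 43.0 for Nr1d2, 28.5 for Per1, 12.2 for Cry2, 7.90 for Arntl, 6.10 for Per3, 5.71 for Cry1, 4.57 for Per2 and 3.42 for Clock. The highest group mean was between 1.05 (Per2) and 1.49 (Cry2) times the lowest. From mouse to mouse the range was wider, from 2.13-fold for Nr1d2 to 4.84-fold for Arntl between the lowest and the highest of the 16 mice. WT at 6 months had the lowest group mean for 8 of the 10 genes, all but Per1 and Per2, as deposited. After median-of-ratios scaling it had the lowest mean for 3 (Clock, Cry2 and Nr1d1) and the highest for 4 (Per1, Per2, Cry1 and Dbp).

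**Figure D1:**
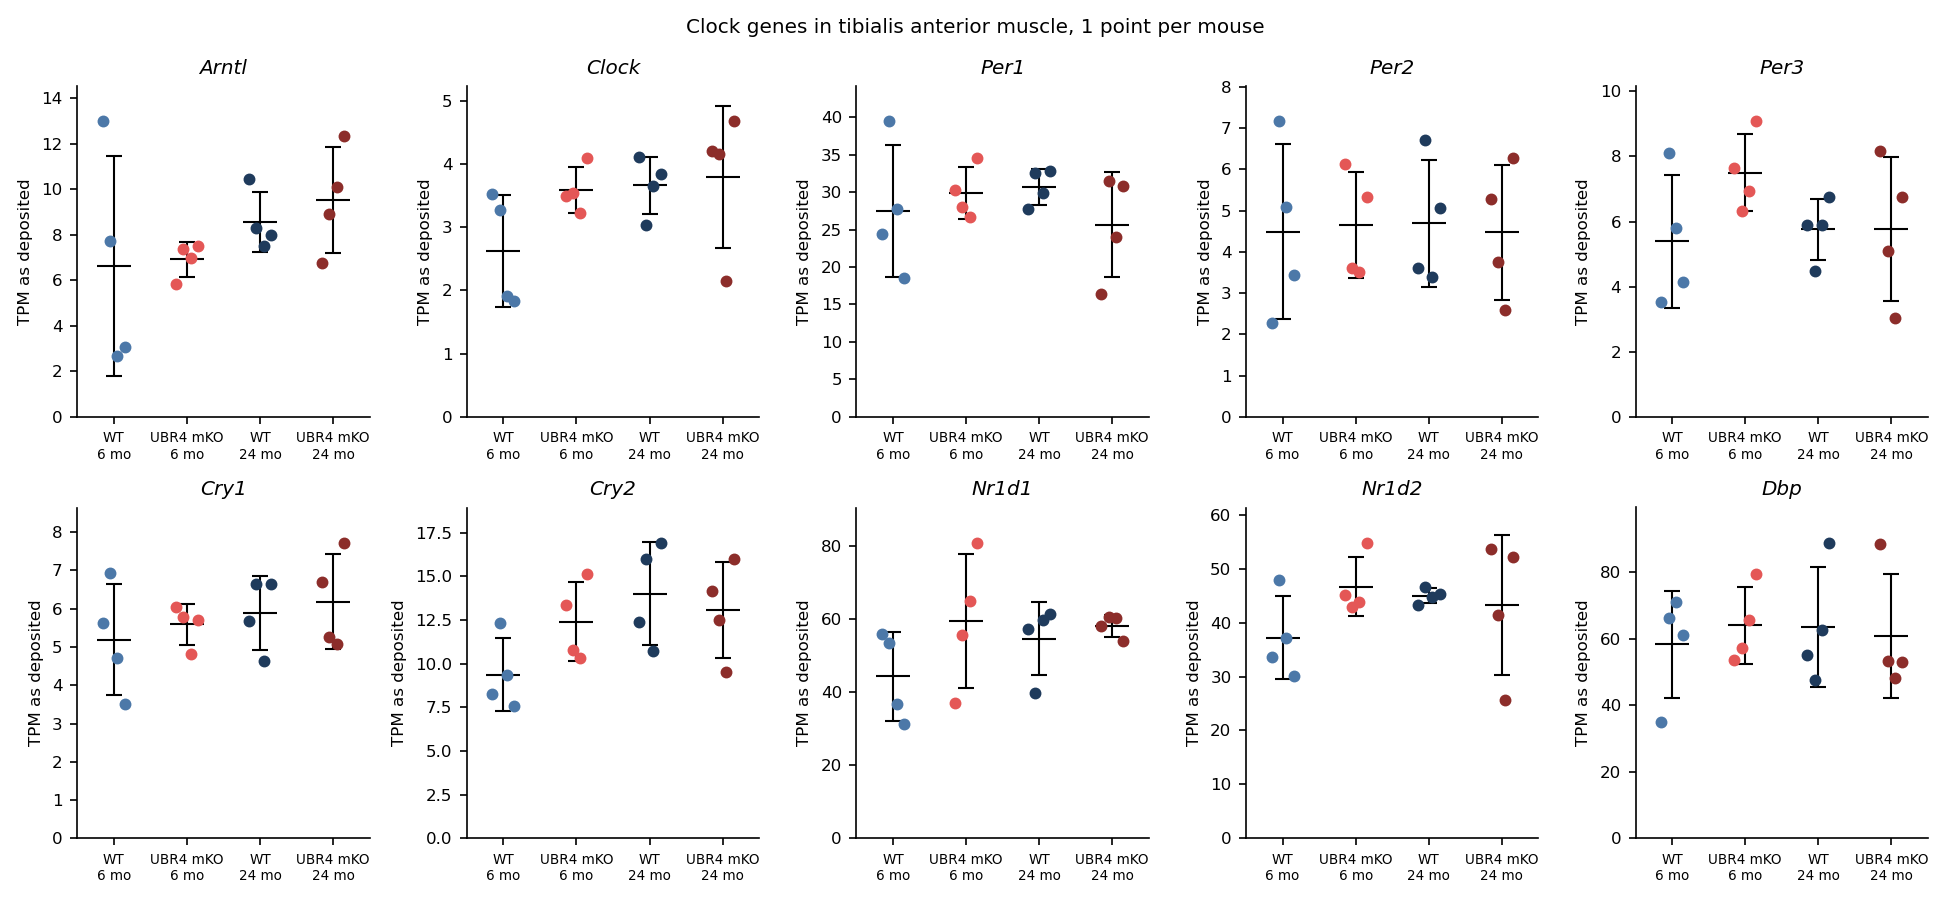
TPM as deposited of the 10 clock genes, with 1 point per mouse, grouped by genotype and age; bars give the mean and SD of 4 mice. The groups overlap in every panel, and the 4 Arntl values of WT at 6 months reach from 2.68 to 12.99 TPM while those of UBR4 mKO at 6 months lie between 5.83 and 7.498.

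Arntl, the activator without which the loop stops, was the most scattered. Its TPM was 12.99, 7.74, 2.68 and 3.07 in the 4 WT mice at 6 months and 5.83, 7.36, 6.98 and 7.498 in UBR4 mKO. At 24 months it was 10.5, 8.31, 7.498 and 7.97 in WT and 6.76, 8.90, 10.1 and 12.3 in UBR4 mKO. The young WT group thus held both the highest and the lowest of all 16 mice and enclosed every other group. Its mean of 6.62 ± 4.83 TPM (SD, n = 4) stood beside 6.92 ± 0.755, 8.56 ± 1.31 and 9.52 ± 2.32 in UBR4 mKO at 6 months, WT at 24 months and UBR4 mKO at 24 months. On the scale of log2(TPM + 0.1), used for all fold changes, UBR4 mKO exceeded WT at 6 months by 0.35 (95% interval -0.39 to 1.09, limma adjusted p = 0.403), which was the shift of the median gene, and by 0.00 (-0.72 to 0.72) after median-of-ratios scaling. The difference between 24 and 6 months in WT was 0.65 (-0.09 to 1.38, limma adjusted p = 0.155), or 0.38 after scaling. Both values turned on single young WT mice. Without mouse 1 the deposited values differed by 0.77 (limma adjusted p = 0.0416) for genotype and by 1.07 (limma adjusted p = 0.018) for age. Both were then called, as were 34.7% and 17.7% of all genes. Without mouse 3 the differences were 0.02 and 0.32, and neither was called. With array weights the genotype difference was -0.34.

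Clock, the partner of BMAL1, was the lowest of the 10 genes. It was at 3.52, 3.27, 1.91 and 1.83 TPM in WT and 3.496, 3.54, 3.23 and 4.09 TPM in UBR4 mKO at 6 months. At 24 months it was at 4.12, 3.04, 3.65 and 3.84 TPM in WT and at 4.21, 4.17, 2.15 and 4.68 TPM in UBR4 mKO. The same pair of young WT mice, 3 and 4, that had the least Arntl also had the least Clock as deposited. After median-of-ratios scaling mouse 3 ranked 16th of the 16 mice for Clock and mouse 4 ranked 14th. The log2 fold change at 6 months was 0.49 (0.00 to 0.97, limma adjusted p = 0.089), and 0.15 after median-of-ratios scaling. With age in WT it was 0.51 (0.03 to 1.00, limma adjusted p = 0.097), or 0.25 after scaling. Clock was called for genotype at 6 months when young WT mouse 1, young WT mouse 2 or old UBR4 mKO mouse 3 was left out (0.64, 0.61 and 0.49), and for age when either of the last 2 was (0.63 and 0.51).

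Among the Per genes, whose proteins carry the negative arm of the loop, Per1 was the most abundant. It was 24.4, 39.4, 27.8 and 18.5 TPM in WT and 30.3, 28.1, 26.7 and 34.5 TPM in UBR4 mKO at 6 months, and 27.7, 32.6, 29.8 and 32.8 TPM in WT and 16.4, 31.5, 24.0 and 30.9 TPM in UBR4 mKO at 24 months. Per2 was 2.27, 7.16, 5.09 and 3.45 TPM in young WT, 6.12, 3.61, 3.51 and 5.33 in young UBR4 mKO, 3.60, 6.71, 3.40 and 5.05 in old WT and 5.27, 3.75, 2.58 and 6.28 in old UBR4 mKO mice. Young WT mouse 1, with the most Arntl of all, had the least Per2, and young WT mouse 2 had the most of both Per1 and Per2. Per3 had group means of 5.39 ± 2.04, 7.50 ± 1.18, 5.76 ± 0.948 and 5.77 ± 2.21 TPM (SD, n = 4, in the order of the 4 groups above), and its values in young WT, 3.53, 8.10, 5.79 and 4.13 TPM, were lowest in the same mouse 1. The UBR4 mKO minus WT difference at 6 months was 0.16 (-0.27 to 0.59) for Per1, 0.13 (-0.56 to 0.82) for Per2 and 0.53 (-0.03 to 1.09) for Per3 on the log2 scale, with limma adjusted p-values of 0.499, 0.745 and 0.107. After median-of-ratios scaling these became -0.19, -0.22 and 0.18, so that the direction for Per1 and Per2 hung on the scaling. With age in WT the changes were 0.21, 0.13 and 0.15 as deposited and -0.07, -0.14 and -0.12 after scaling. Per3 was called at 6 months without young WT mouse 2 (0.75) or old UBR4 mKO mouse 3 (0.53). With array weights it was called at 6 months (0.72) and with age in WT (0.49), as were 64.1% and 61.5% of all genes.

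The cryptochromes are the partners of the PER proteins and the stronger repressors. Cry1 had group means of 5.19 ± 1.45, 5.59 ± 0.543, 5.89 ± 0.960 and 6.19 ± 1.25 TPM (SD, n = 4). It differed between genotypes at 6 months by 0.14 (-0.25 to 0.53, limma adjusted p = 0.52) and between ages in WT by 0.21, or by -0.20 and -0.06 after scaling. Cry2 was the only clock gene past the test in any of the 5 comparisons. It was at 8.27, 12.3, 9.33 and 7.56 TPM in young WT, 13.3, 10.8, 10.3 and 15.1 in young UBR4 mKO, 12.4, 16.003, 10.7 and 16.9 in old WT and 14.2, 12.5, 9.55 and 16.001 in old UBR4 mKO mice. Old WT mice were thus higher than young WT mice on average, but the groups overlapped, since old mouse 3 was below young mouse 2. The log2 fold change with age in WT was 0.58 (SE 0.19, 95% interval 0.18 to 0.97, limma adjusted p = 0.0357), whereas the exact two-sided permutation test gave p = 0.0571 against a smallest possible p of 0.0286. After median-of-ratios scaling it was 0.30 (0.01 to 0.60, limma adjusted p = 0.183) and was no longer called. It was also lost without young WT mouse 1, 3 or 4 or old WT mouse 1, 2 or 4, and over all 28 alternatives its adjusted p ran from 0.00141 to 0.204. Between genotypes at 6 months Cry2 differed by 0.41 (0.01 to 0.80, limma adjusted p = 0.0829), or 0.06 after scaling. In that comparison it was called without young WT mouse 2 (0.55) and with array weights (0.39), as were 58.7% and 64.1% of all genes. The exons of Cry2 share 295 bases with an RNA on the opposite strand that was at most 0.0392 TPM in any mouse.

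Nr1d1 and Nr1d2, which encode the REV-ERB repressors of Arntl, were among the most abundant clock genes. Nr1d1 was 55.7, 53.4, 36.6 and 31.3 TPM in young WT and 36.9, 55.5, 64.9 and 80.7 TPM in young UBR4 mKO mice. In old mice it was 57.2, 39.8, 59.8 and 61.4 TPM in WT and 58.0, 60.5, 60.2 and 53.9 TPM in UBR4 mKO. The young UBR4 mKO mice thus reached from the lower WT values to the highest of all 16 mice, and the log2 difference at 6 months was 0.41 (-0.04 to 0.86, limma adjusted p = 0.115), or 0.06 after median-of-ratios scaling. Nr1d2 had group means of 37.2 ± 7.73, 46.7 ± 5.48, 45.0 ± 1.43 and 43.3 ± 12.9 TPM (SD, n = 4), and differed at 6 months by 0.34 (-0.05 to 0.73, limma adjusted p = 0.131), or -0.01 after scaling. With age in WT the changes were 0.32 for Nr1d1 and 0.29 for Nr1d2, or 0.05 and 0.02 after scaling. Nr1d1 was called at 6 months without young UBR4 mKO mouse 1 (0.62), and Nr1d2 without young WT mouse 2 (0.47) or old UBR4 mKO mouse 3 (0.34). With array weights Nr1d2 was called at 6 months (0.34) and with age in WT (0.34), as were 64.1% and 61.5% of all genes. Nr1d1 shares 263 exonic bases with Thra on the opposite strand, which was 15.6 to 25.8 TPM, and whether strand was used in counting is not stated.

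Dbp, a transcription factor that carries the rhythm of E-boxes on to genes with D-boxes, is among the most strongly cycling transcripts of peripheral tissues. It was 35.0, 66.1, 71.2 and 61.1 TPM in young WT, 53.55, 57.3, 65.8 and 79.7 in young UBR4 mKO, 55.2, 47.6, 62.6 and 88.9 in old WT and 88.6, 53.5, 48.3 and 52.9 in old UBR4 mKO mice. All 4 groups therefore overlapped widely. The difference between genotypes at 6 months was 0.17 (-0.32 to 0.66, limma adjusted p = 0.546) as deposited and -0.19 (-0.67 to 0.30) after median-of-ratios scaling. With array weights, where 64.1% of all genes were called, it was 0.49 and called (limma adjusted p = 0.0431). The difference between ages in WT was 0.13 (-0.36 to 0.63, limma adjusted p = 0.655), or -0.14 after scaling. Dbp shares 539 exonic bases with Sphk2 on the opposite strand, which was 2.56 to 5.21 TPM.

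Counted over the list, 0 of 10 clock genes passed the limma test (Benjamini-Hochberg adjusted p under 0.05 over 10628 genes) for UBR4 mKO against WT at 6 months, where 44.9% of all genes tested did, with 2 clock genes and 55.5% of all genes at an unadjusted p under 0.05. At 24 months 0 of 10 passed, with 0.63% of all genes called, and 0 clock genes but 10.1% of all genes had an unadjusted p under 0.05. For 24 against 6 months, 1 of 10 passed in WT (Cry2, higher), where 25.1% of all genes were called, and 0 of 10 in UBR4 mKO, where 6.29% were. At an unadjusted p under 0.05 the counts were 2 of 10 in WT and 0 of 10 in UBR4 mKO, against 44.2% and 19.7% of all genes. By Dunn's test 0 clock genes passed the adjusted threshold in any of these 4 comparisons, where 23.4% of all genes did at 6 months and 0% in the other 3. At an unadjusted p under 0.05 the counts were 0, 0, 1 and 0 of 10 for genotype at 6 and 24 months and age in WT and UBR4 mKO, against 42.5%, 4.02%, 26.7% and 10.7% of all genes. The interaction of genotype and age was past the limma test for 0 of 10, against 4.7% of all genes, and 0 had an unadjusted p under 0.05, against 31% of all genes. After median-of-ratios scaling 0 of 10 passed in each of the 5 comparisons, whereas 16.8%, 0.913%, 9.77%, 11.3% and 1.99% of all genes did.

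At 6 months and with age in WT the median of the clock genes was close to that of all genes. Their median log2 fold change at 6 months was 0.34, against 0.33 for all genes, with 10 of 10 above 0. In WT with age it was 0.25, against 0.26, again with 10 of 10 above 0. After median-of-ratios scaling it was -0.01 and -0.02, against -0.02 and -0.00 for all genes, with 5 of 10 above 0 in both. For genotype at 24 months it was -0.07, against 0.01 (-0.09 and -0.01 after scaling), with 6 of 10 below 0 (7 after scaling). For age in UBR4 mKO it was -0.03, against -0.04, and for the interaction -0.38, against -0.31 (-0.04 and 0.01 after scaling). At 24 months the clock genes differed between genotypes by -0.30 (Per1, -0.73 to 0.13, limma adjusted p = 0.716) to 0.13 (Arntl, -0.61 to 0.87, limma adjusted p = 0.975). In UBR4 mKO with age they differed by -0.45 (Per3, -1.01 to 0.11, limma adjusted p = 0.387) to 0.43 (Arntl, -0.31 to 1.17, limma adjusted p = 0.565). The interaction ran from -0.60 (Per3, -1.40 to 0.20, limma adjusted p = 0.259) to -0.08 (Cry1, -0.63 to 0.47, limma adjusted p = 0.835) as deposited, with the median gene at -0.31. After median-of-ratios scaling it ran from -0.27 to 0.25, with 5 genes above and 5 below 0 and the median gene at 0.01. These intervals are wide, and for Arntl in particular they leave room for a change of more than 0.5 on the log2 scale in either direction at 24 months. For 0 of the 10 genes did the groups fail to overlap in any of the 4 pairwise comparisons, whereas this was so for 39.9% of all genes at 6 months, 5.8% at 24 months, 25.9% with age in WT and 12.9% with age in UBR4 mKO.

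**Figure D2:**
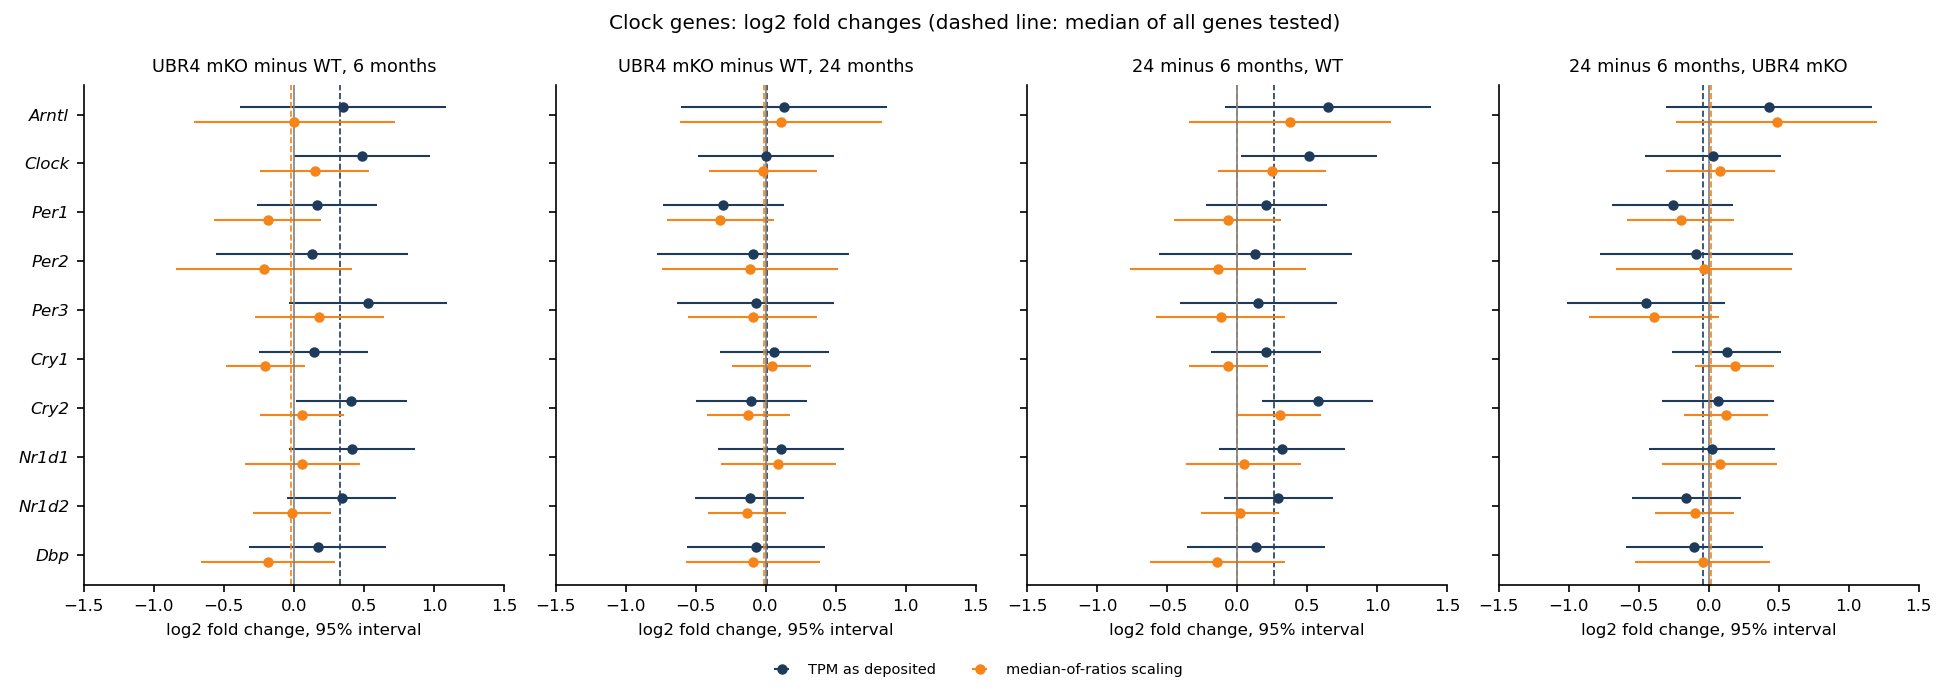
Log2 fold changes (points) with 95% intervals (lines) of the 10 clock genes in the 4 pairwise comparisons, from TPM as deposited (dark) and after median-of-ratios scaling (orange); dashed lines mark the median of all 10628 genes in each scaling. As deposited, the clock genes scatter about the dashed line at 0.33 for genotype at 6 months and 0.26 for age in WT, and after scaling they scatter about 0.

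The activators and the repressors were next set against each other, since collection at another time of day would move them apart. In the 2 activators the median log2 fold change was 0.42 for genotype at 6 months and 0.58 for age in WT, against 0.25 and 0.21 in the other 8 clock genes. After median-of-ratios scaling the same medians were 0.07 and 0.31 against -0.10 and -0.06. At 24 months they were 0.07 against -0.08 for genotype, and 0.23 against -0.10 for age in UBR4 mKO. The medians of the activators were the higher ones in all 4 comparisons, which share groups with one another, but each rests on Arntl and Clock alone, neither of which passed the test in any comparison.

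A difference between 2 genes within 1 mouse does not depend on how the library was scaled. Arntl minus Dbp, in log2 units, was -1.42, -3.08, -4.68 and -4.27 in young WT and -3.18, -2.94, -3.22 and -3.39 in young UBR4 mKO mice. It was -2.39, -2.51, -3.05 and -3.46 in old WT and -3.69, -2.57, -2.25 and -2.09 in old UBR4 mKO mice. The group means of -3.36 ± 1.46, -3.18 ± 0.18, -2.85 ± 0.50 and -2.65 ± 0.72 (SD, n = 4) lay well within the spread of the young WT mice. In TPM, Dbp exceeded Arntl 2.69-fold in young WT mouse 1 but 26.6-fold in young WT mouse 3, whereas in young UBR4 mKO mice the ratio kept between 7.78 and 10.6. Over the 8 repressors and outputs and the 4 pairwise comparisons, the groups did not overlap in 1 of 32 such differences, Arntl minus Per1 with age in UBR4 mKO, which was higher by 0.69 at 24 months. In that comparison Arntl minus any other gene did not overlap for 15.9% of genes, against 0.489% for genotype at 6 months, 0.866% at 24 months and 0.621% with age in WT.

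**Figure D3:**
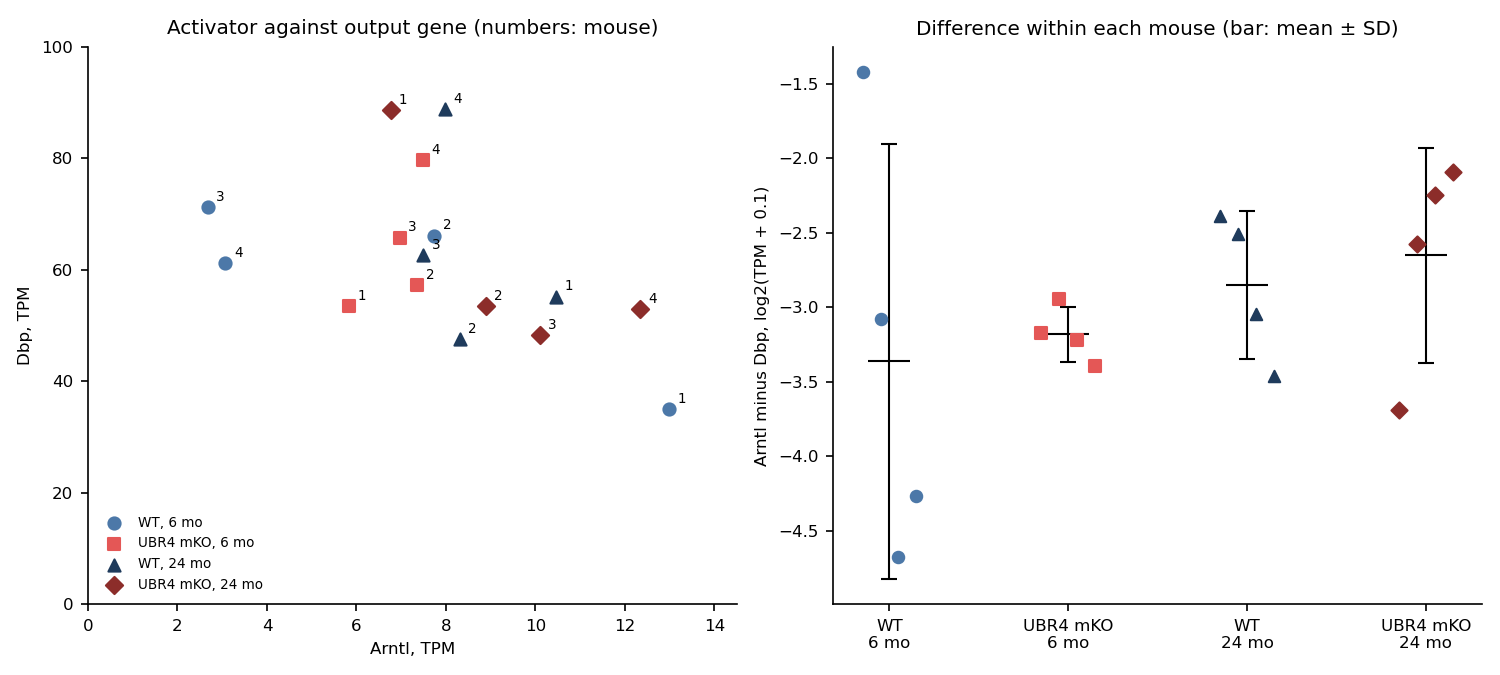
Left, Dbp against Arntl in TPM for the 16 mice, with mouse numbers; right, Arntl minus Dbp in log2(TPM + 0.1) within each mouse, with the mean and SD of 4 mice. The young WT mice spread along a falling diagonal from mouse 3 (2.68 TPM Arntl, 71.2 TPM Dbp) to mouse 1 (12.99 and 35.0 TPM), and the young UBR4 mKO mice sit close together at -3.39 to -2.94.

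The clock genes varied more between mice of a group than the median gene did. The pooled SD within groups of log2(TPM + 0.1) was 0.58 for Arntl, 0.54 for Per2, 0.43 for Per3, 0.38 for Dbp, 0.36 for Clock, 0.35 for Nr1d1, 0.33 for Per1, 0.30 for Cry2, 0.30 for Nr1d2 and 0.29 for Cry1, against 0.20 for the median gene. All 10 were thus above the median, from the 78.3th percentile of all genes tested (Cry1) to the 97.3th (Arntl), and after median-of-ratios scaling from the 65.2th to the 97.2th. Per2, Per3 and Dbp were at the 96.1th, 91.5th and 92.3th percentile after scaling, but Cry1, Nr1d2 and Cry2 at the 65.2th, 66.4th and 71.4th. These are ranks among genes of all levels, and TPM carries no depth from which the counting error could be taken out. Among the 500 genes nearest in mean level, the clock genes ran from the 81.6th (Cry1) to the 99.0th (Arntl) percentile. After scaling that range was from the 73.0th to the 98.8th.

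The group with the widest spread differed between the genes. It was young WT for 5 (Arntl, Per1, Per2, Cry1 and Dbp), old UBR4 mKO for 4 (Clock, Per3, Cry2 and Nr1d2) and young UBR4 mKO for Nr1d1, and after scaling young WT for 4, old UBR4 mKO for 4 and the other two groups for 1 each. Over all genes young WT was widest for 36% and old UBR4 mKO for 44.3%, or 14.4% and 61.5% after scaling. The SD of Arntl was 1.07 in young WT, at the 99.8th percentile, and 0.16, 0.21 and 0.36 in young UBR4 mKO, old WT and old UBR4 mKO mice, where it was at the 64.0th, 76.9th and 76.4th. Per2 was spread in every group, with an SD of 0.70, 0.39, 0.45 and 0.55. Nr1d1 was most even in old UBR4 mKO mice, with an SD of 0.08 at the 6.37th percentile, but of 0.19 at the 40.8th after median-of-ratios scaling. Nr1d2 was even in old WT mice, with an SD of 0.05, or 0.09 after scaling. The range of Arntl minus Dbp was 3.26 in young WT and 0.45, 1.07 and 1.60 in the other groups. For 96.8% of 10627 genes the range of Arntl minus that gene was widest in young WT, as was that of Arntl alone, with medians of 2.21, 0.39, 0.51 and 0.99 in the 4 groups. It exceeded the range of Arntl alone in young WT, 2.23, since Dbp went the other way, and that of Arntl minus Dbp, Per2 (3.37) and Per3 (2.93) was at the 99.3th, 99.5th and 97.8th percentile of Arntl minus each of 10627 genes. The range of Arntl minus Nr1d1 (1.63) and minus Clock (1.38) was at the 1.64th and 0.527th, since those went with Arntl.

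**Figure D4:**
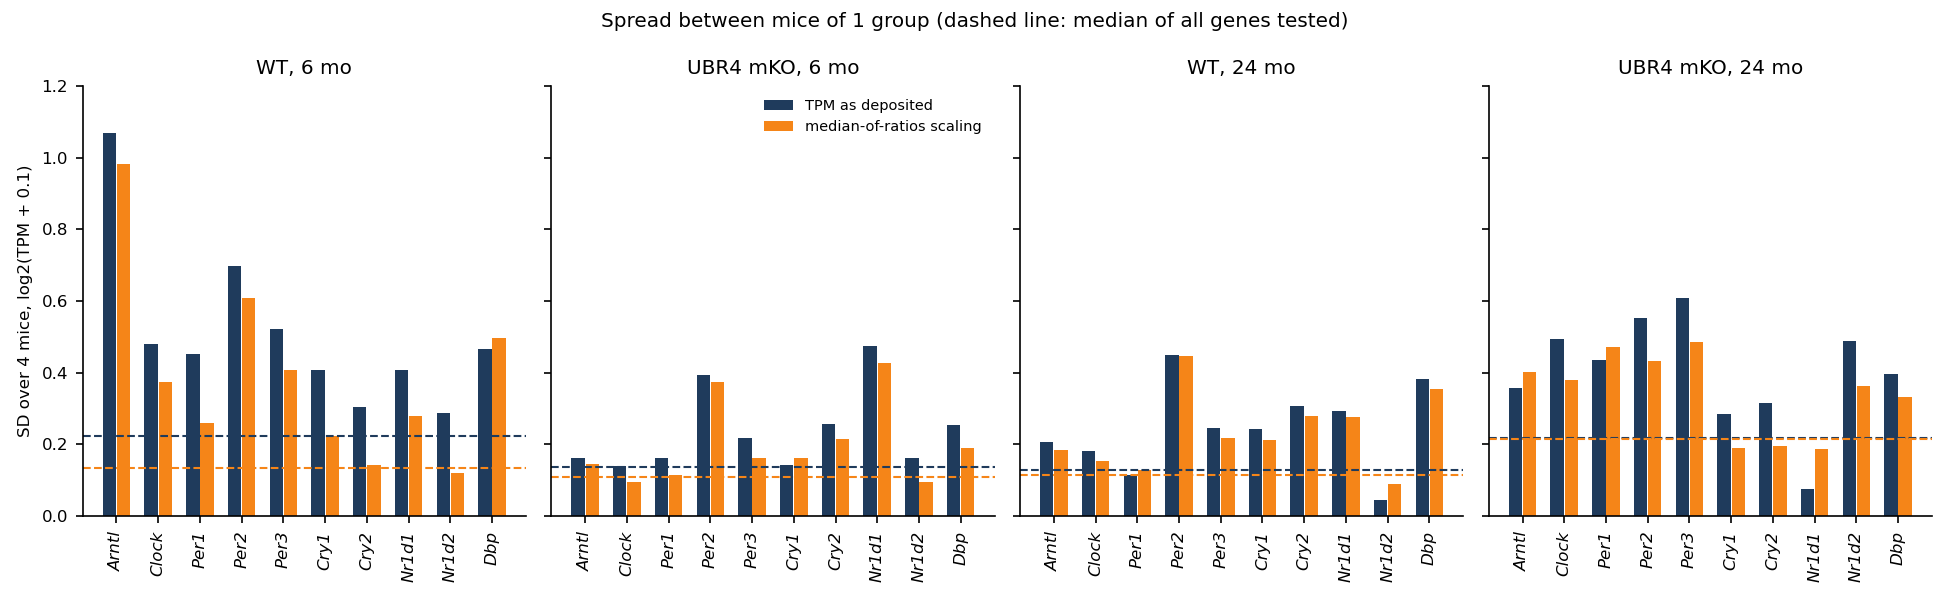
SD over the 4 mice of each group of log2(TPM + 0.1) for the 10 clock genes, as deposited (dark) and after median-of-ratios scaling (orange); dashed lines give the median of all genes tested. The bar of Arntl in young WT mice reaches 1.07, and in young UBR4 mKO mice it is 0.16.

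Single mice carried this pattern. Of the 16 mice, young WT mouse 1 ranked 1st for Arntl and 16th for Dbp and Per2, and 15th for Per3 and Cry2. It ranked 9th for Nr1d1 and 10th for Cry1, or 3rd and 4th after median-of-ratios scaling. Young WT mouse 3 ranked 16th for Arntl and 4th for Dbp, but 15th for Nr1d1 and 14th for Cry1 and Cry2. After median-of-ratios scaling mouse 3 ranked 14th for Nr1d1, 9th for Cry1 and 11th for Cry2. Mouse 4 ranked 15th for Arntl and 16th for Clock, Cry1, Cry2 and Nr1d1. The last 4 ranks were those of the deposited values, in a library with the highest mitochondrial share, 59.7%, and after median-of-ratios scaling mouse 4 ranked 1st for Dbp. The Y-linked sum of the 4 young WT mice was 25.5, 10.9, 4.36 and 11.2 TPM, so mouse 1 and mouse 3 were also the highest and the lowest there. The part of the mixed RNA in this spread was not tested.

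The pattern held in part over all mice. With group means removed, Arntl correlated with Dbp at a Pearson r of -0.57 (Spearman rho -0.46) over the 16 mice, and at -0.80 after median-of-ratios scaling. Without young WT mice 1 and 3, the farthest from the median of Arntl, r was -0.25 as deposited. In the deposited values the relation thus rests largely on them. These mice were not left out after scaling. All correlations are given as descriptions, since the points share library and scaling, and no p was taken. Arntl went with Clock (r = 0.61), Nr1d1 (0.57) and Cry1 (0.50), less with Per1 (0.36), while r was 0.10 with Cry2, 0.07 with Nr1d2, -0.16 with Per3 and -0.24 with Per2, against 0.26 for the median gene. After median-of-ratios scaling these 4 were -0.20, -0.29, -0.51 and -0.49, against 0.02 for the median gene. Among the 28 pairs of repressors and outputs, 12 had an r above 0.5 (7 after scaling), where 32.2% of all pairs of genes tested did (13.1% after scaling), among them 0.89 for Per3 and Nr1d2, 0.88 for Per2 and Cry2, 0.82 for Cry1 and Cry2, and 0.72 for Per3 and Dbp, while others were near or below 0, such as 0.06 for Cry2 and Nr1d1 and -0.10 for Per1 and Dbp (-0.45 and -0.34 after scaling). Of all 45 pairs, 18 were above 0.5 and 1 below -0.5, and after median-of-ratios scaling 8 and 3 were. Nr1d1 went with Arntl, at 0.57 as deposited and 0.49 after scaling, unlike the opposite timing given above. Nr1d1 also did not follow Per2, at -0.28 as deposited and -0.68 after scaling.

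**Figure D5:**
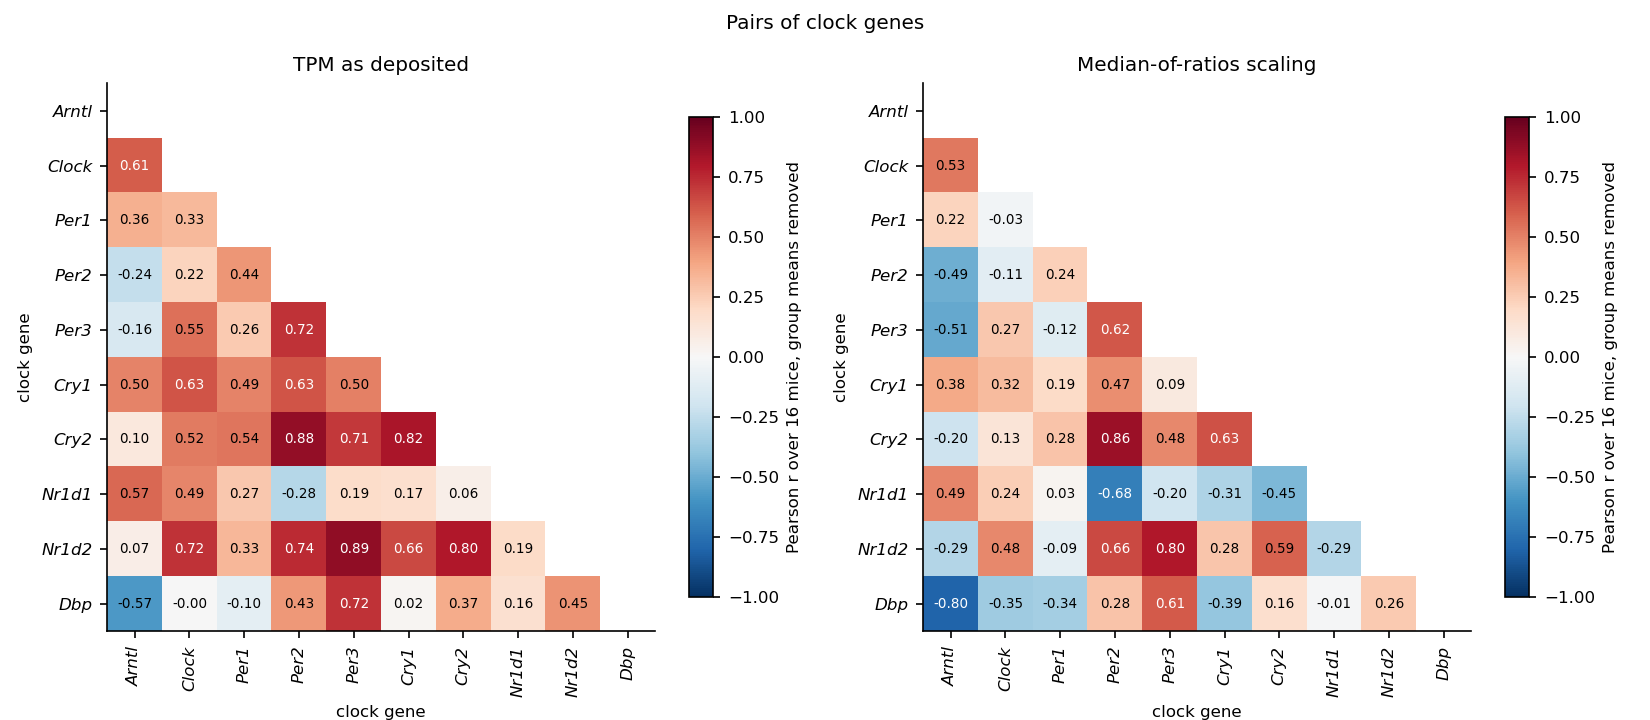
Pearson r of each pair of clock genes over the 16 mice, with group means removed, from TPM as deposited (left) and after median-of-ratios scaling (right). Per2, Per3, Cry2 and Nr1d2 form a red block in both, with 0.89 for Per3 and Nr1d2 as deposited, and Arntl with Dbp is the bluest square, -0.57 and -0.80.

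Over all 10628 genes, those most like Arntl in this measure were Slc25a36, a mitochondrial carrier (r = 0.92, and 0.93 after median-of-ratios scaling), Noc4l (0.89), Tinf2 (0.88), Pnpla3 (0.87) and Rbm17 (0.86). The most opposite were AI506816 (-0.79), Lyz1 (-0.77), Ccnd1 (-0.75), Col1a1 (-0.74) and Mxra7 (-0.73). For Slc25a36 r was 0.84 without the 2 farthest mice. The genes most like Dbp were Zfp385b (0.91), Masp1 (0.89), Ctnna3 (0.89), Olfml2a (0.88) and Dyrk1b (0.86). Hlf, which encodes a relative of DBP that binds the same D-box, was 8th (0.82), and Per3 44th (0.72).

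The wider clock was taken from lists of genes written by their known roles. Of 10 further transcription factors of the clock, 7 were tested (Npas2, Arntl2 and Rorb were too low). At 6 months 1 of 7 was higher in UBR4 mKO (Bhlhe41), against 43.7% of all genes called higher, and in WT 3 of 7 were higher with age (Bhlhe40, Bhlhe41 and Ciart), against 24%. In UBR4 mKO 0 of 7 were higher with age, against 2.45%, and 0 of 7 passed for genotype at 24 months, against 0.63%. The median log2 fold change of the 7 was 0.10 at 6 months, against 0.33 for all genes, and 0.56 with age in WT, against 0.26. Bhlhe41, which encodes DEC2, a repressor at E-boxes, was 7.01 ± 1.05 TPM in young WT and 11.99 ± 1.55, 12.4 ± 2.77 and 13.5 ± 2.01 TPM in the other groups (SD, n = 4). As deposited, each young UBR4 mKO and each old WT mouse was above each young WT mouse, whereas after median-of-ratios scaling both overlapped young WT. The log2 fold change was 0.77 (SE 0.16, limma adjusted p = 0.00188) for genotype at 6 months and 0.80 (limma adjusted p = 0.00283) for age in WT. After median-of-ratios scaling, 0.42 and 0.53 remained, with limma adjusted p-values of 0.063 and 0.0333. After scaling the list had 1 called lower at 6 months (Hlf), against 10.2% of all genes, and 1 higher with age in WT (Bhlhe41), against 4.44%.

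Bhlhe40, which encodes the related repressor DEC1, was 50.3 ± 7.90 TPM in young WT and 74.3 ± 9.85 TPM in old WT (SD, n = 4), a log2 change of 0.56 (SE 0.16, limma adjusted p = 0.0189) that was 0.29 (limma adjusted p = 0.121) after median-of-ratios scaling. Ciart, which encodes a repressor of BMAL1 and CLOCK, was 4.48, 7.10, 4.54 and 4.90 TPM in young WT and 6.21, 8.33, 6.96 and 10.97 TPM in old WT mice. The groups overlapped through young WT mouse 2, and the log2 change was 0.61 (SE 0.19, limma adjusted p = 0.0278), or 0.34 (limma adjusted p = 0.167) after scaling. Hlf, picked after its values were seen, was 2.80 ± 0.599 TPM in young WT and 1.89 ± 0.255 TPM in young UBR4 mKO (SD, n = 4), a difference of -0.52 (limma adjusted p = 0.088) as deposited and -0.86 (SE 0.22, limma adjusted p = 0.0134) after scaling.

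The proteins of the clock are marked for turnover by kinases and ubiquitin ligases. Of 8 genes for kinases, ligases and other modifiers of clock proteins, 7 were tested. Of the 7, 4 were higher in UBR4 mKO at 6 months (Csnk1d, Csnk1e, Btrc and Timeless), against 43.7% of all genes. With age in WT 1 was higher (Fbxw11), against 24%. In the other comparisons 0 were called, and 0 anywhere after median-of-ratios scaling. The median fold change of the 7 was 0.33 at 6 months (log2), that of the median gene. Btrc and Fbxw11 encode the β-TrCP ligases that degrade PER proteins. Btrc was 4.84 ± 0.519 TPM in young WT and 6.98 ± 0.410 TPM in young UBR4 mKO (SD, n = 4), a log2 fold change of 0.52 (limma adjusted p = 0.00174), and Fbxw11 with age in WT changed by 0.38 (limma adjusted p = 0.0387). Timeless, a binding partner of the clock proteins, was near 1 TPM and changed by 0.54 at 6 months (limma adjusted p = 0.0463).

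Of 11 genes listed as clock outputs in muscle, all tested, 2 were higher in UBR4 mKO at 6 months (Pdk4 and Pdp1, which act against each other on pyruvate dehydrogenase), against 43.7% of all genes. With age 1 was higher in WT (Nampt), against 24%, and 1 in UBR4 mKO (Myod1, the myogenic regulator), against 2.45%. The median fold change of the 11 (log2) was 0.24 at 6 months and 0.27 with age in WT. Pdk4 was 238 ± 73.2 TPM in young WT and 414 ± 51.7 TPM in young UBR4 mKO (SD, n = 4), a log2 fold change of 0.84 (limma adjusted p = 0.0108), and Pdp1 changed by 0.67 (limma adjusted p = 0.0101). Neither was called after median-of-ratios scaling. Myod1 rose from 11.5 ± 3.32 to 19.9 ± 2.17 TPM with age in UBR4 mKO (SD, n = 4), by 0.82 (limma adjusted p = 0.012) and 0.87 after scaling (limma adjusted p = 0.0153). After scaling, Tcap, a protein of the sarcomere, was called lower with age in WT, against 5.33% of all genes, and Nampt was not called.

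Per1 is also switched on by glucocorticoids, and clock genes in tissue are set by hormones and body temperature, so genes that answer to these were listed too. Of 9 glucocorticoid-responsive genes, 3 were higher in UBR4 mKO at 6 months (Cdkn1a, Mt1 and Mt2), against 43.7% of all genes, and 4 higher with age in WT (these and Sgk1), against 24%. The median fold change of the 9 (log2) was 0.10 at 6 months and 0.37 with age in WT, against 0.33 and 0.26 for all genes. After median-of-ratios scaling it was -0.25 and 0.09, against -0.02 and -0.00 for all genes. Then 6 of the 9 were below 0 at 6 months and 3 with age in WT. For genotype at 24 months all 9 were below 0, with a median of -0.45 (-0.47 after scaling) against 0.01 for all genes, but 0 of 9 were called, against 0.63%. The metallothionein Mt2 was 31.9 ± 9.51 TPM in young WT against 129 ± 55.0, 191 ± 152 and 84.7 ± 48.3 TPM in the other groups (SD, n = 4). Its log2 fold change was 1.96 at 6 months (limma adjusted p = 0.00536) and 2.33 with age in WT (limma adjusted p = 0.00416), and its interaction was -3.05 (limma adjusted p = 0.0202). Both fold changes of Mt2 were called after scaling too, at 1.61 and 2.06, but not the interaction (-2.72, limma adjusted p = 0.0589). Cdkn1a, an inhibitor of the cell cycle, rose with age in WT by 1.42 (limma adjusted p = 0.00446), or 1.15 after scaling. After scaling, Mt2 was the 1 gene of the list called at 6 months, against 16.8% of all genes, and Mt2 and Cdkn1a were the 2 called with age in WT, against 9.77%. Of 7 genes that respond to body temperature, 3 were higher in UBR4 mKO at 6 months (Cirbp, Hsph1 and Hspa8), against 43.7% of all genes. With age in WT 2 were higher (Hsph1 and Dnajb1), against 24%. The median fold change of the 7 (log2) was 0.46 and 0.45, or 0.10 and 0.18 after scaling. The list was not split by whether a gene rises in cold or in heat, so these values give no direction of temperature. Hsph1, a chaperone, was 9.56 ± 1.34 TPM in young WT and 13.2 ± 1.18, 15.4 ± 1.07 and 12.95 ± 2.12 TPM in the other groups (SD, n = 4), and its rise with age in WT, 0.69, was called in both scalings. Its interaction of -0.73 (limma adjusted p = 0.0309) was not called after scaling (-0.40, limma adjusted p = 0.243). After scaling the list had 1 of 7 higher with age in WT (Hsph1), against 4.44% of all genes, and 1 higher with age in UBR4 mKO (Rbm3), against 5.97%.

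Markers of other cells of the muscle were read too. For genotype at 6 months 3 of 3 leukocyte, 2 of 4 endothelial and 2 of 4 fibroblast markers tested were higher in UBR4 mKO, against 43.7% of all genes (3, 0 and 1 after scaling), and 0 of the adipocyte, Schwann cell and blood markers were. Of the first 3 sets, Cd68 was higher and Col1a1 lower with age in WT, where 25.1% of all genes were called. After scaling Pecam1, Cdh5 and Tek were lower too, where 9.77% were called. With age in UBR4 mKO Pecam1, Cdh5, Col1a1 and Col3a1 were lower, where 6.29% were called, and Tek too after scaling (11.3%). The summed TPM of 6 leukocyte markers was 1.70 to 2.25 in young WT (Cd3e at 0 in all 4), 5.26 to 21.96 in young UBR4 mKO, 3.90 to 8.04 in old WT and 7.49 to 29.0 in old UBR4 mKO mice. That of 4 endothelial markers was 66.4 to 91.1 in young WT, 105 to 114 in young UBR4 mKO, 68.6 to 81.4 in old WT and 53.7 to 87.6 in old UBR4 mKO, and that of 4 fibroblast markers was 159 to 265, 205 to 382, 157 to 349 and 223 to 420. The sums of 5 adipocyte markers were 8.37 to 16.6, 8.76 to 18.2, 7.59 to 19.5 and 10.97 to 70.2, those of 4 Schwann cell markers 16.4 to 22.3, 14.7 to 23.4, 14.2 to 25.3 and 18.6 to 23.2, and those of 4 blood markers 805 to 1106, 576 to 941, 916 to 1267 and 751 to 2064. In whole muscle, fewer cells of a type and less RNA per cell cannot be told apart, and every cell type has its own clock. The part of these cells in the levels of the clock genes was not tested.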

How the data were processed

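RNA of 16 tibialis anterior muscles was sequenced as paired reads. Per the methods and labels, the authors trimmed, aligned (mm10) and quantified them with CLC Genomics Workbench and deposited TPM values. The methods and labels name different library kits and instruments. Annotation release, strand use and reads that match several genes are not stated in the sources used here. TPM keeps no depth, so counting error is unknown.

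Values were taken as log2(TPM + 0.1). Of 21223 genes above 0 in any mouse, the 10628 whose mean TPM reached 1 were fitted with limma 3.58.1 (R 4.3.3), with 1 coefficient per group, a trended variance and Benjamini-Hochberg adjustment over all genes (threshold 0.05). Intervals are 95%, from limma. Median-of-ratios factors used 14470 genes that no sample lists at 0. Exact two-sided permutation tests used all 70 assignments of 4 against 4 mice. The fit was tested on simulated data. Likeness was Pearson's r of group-centred values. Positions and overlaps are from GENCODE vM21 (GRCm38), and promoters from RefSeq. Python 3.11.15 (numpy 2.4.6, scipy 1.17.1, pandas 2.3.3) and matplotlib 3.10.9 were used.

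The members and lists were chosen with earlier results of these data known. Named genes are the 10 members, up to 3 called genes per further list (largest change), and the 5 genes with the highest and lowest r with Arntl and the highest with Dbp, without symbols that begin with Gm, LOC, AC, BC or mt- or end with Rik; other names only list what a count holds. Of the further transcription factors, 1 is not reported here. The labels call the samples biological replicates. Alternatives were other pseudocounts, filters, scalings, variance settings, array weights, a replicate block, only the groups compared, Dunn's test after Kruskal-Wallis (the study's test), and leaving out each mouse. A covariate from Y-linked genes was added after seeing the data.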

Additional observations from a re-analysis of the deposited data

Results flagged for a closer look

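In 3 of 40 sets of 4 mice (10 genes in 4 groups), 1 mouse stood apart from the other 3 of its group by Dixon's 95% criterion on the log2 scale, where chance gives about 2.0. Clock was 2.15 TPM in UBR4 mKO mouse 3 at 24 months, against 4.17 to 4.68 TPM in the other 3. That mouse also had the lowest Per3 and Nr1d2 of all 16. Nr1d1 was 39.8 TPM in WT mouse 2 at 24 months, against 57.2 to 61.4 TPM. Dbp was 88.6 TPM in UBR4 mKO mouse 1 at 24 months, against 48.3 to 53.5 TPM, and Per1 was lowest of all 16 in the same mouse.

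The effect of genotype differed between the ages, by the interaction term of limma, for 2 of 41 genes tested of the further clock, output, glucocorticoid and temperature lists (marker lists of cell types not counted) and for 0 of the 10 clock genes, against 4.7% of all genes as deposited and 1.99% after median-of-ratios scaling. The interaction was -0.73 for Hsph1 (limma adjusted p = 0.0309) and -3.05 for Mt2 (limma adjusted p = 0.0202) as deposited, but -0.40 (0.243) and -2.72 (0.0589) after median-of-ratios scaling.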

How the results depend on the processing

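With 4 mice a group and TPM that carries no depth, only large changes of the clock genes could be detected (for Arntl at 6 months the 95% interval reached from -0.39 to 1.09). Over 28 other settings and left-out mice for each comparison (26 for the interaction), the counts of clock genes called stayed at 0 for the interaction, for genotype at 24 months and for age in UBR4 mKO. For genotype at 6 months the count was 0 of 10 and went to 4 with array weights (Per3, Cry2, Nr1d2 and Dbp, with 64.1% of all genes called), and from 0 to 4 when 1 mouse was left out: 2 without WT mouse 1 (Arntl and Clock, with 34.7% of all genes), 4 without WT mouse 2 (Clock, Per3, Cry2 and Nr1d2, with 58.7%), 1 without UBR4 mKO mouse 1 (Nr1d1, with 37.3%) and 3 without UBR4 mKO mouse 3 of 24 months (Clock, Per3 and Nr1d2, with 55.1%), all higher. For age in WT the count of 1 (Cry2) became 0 with no filter, with median-of-ratios scaling, with rescaling without mitochondrial genes and by Dunn's test (10.8%, 9.77%, 9.91% and 0% of all genes), 3 with array weights (Per3, Cry2 and Nr1d2, with 61.5% of all genes), and 0 to 2 with 1 mouse left out (0 without young WT mouse 3 or 4 or old WT mouse 1, 2 or 4, with 9.16% to 19.1% of all genes, 1, Arntl in place of Cry2, without young WT mouse 1, with 17.7%, and 2, Clock and Cry2, without young WT mouse 2 or old UBR4 mKO mouse 3, with 46.8% and 39.3% of all genes).

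Among the values the report gives, directions turned as follows on the log2 scale, all for genes that were not called. Median-of-ratios scaling gave -0.188 for Per1, -0.216 for Per2, -0.205 for Cry1, -0.013 for Nr1d2 and -0.185 for Dbp for genotype at 6 months, -0.0652, -0.138, -0.118, -0.063 and -0.140 for Per1, Per2, Per3, Cry1 and Dbp for age in WT, with 0.248 for the interaction of Cry1. It also turned 4 interactions not given there, to 0.11 for Arntl and Per2, 0.03 for Nr1d1 and 0.10 for Dbp, and Clock at 24 months, to -0.02. Rescaling without mitochondrial genes gave -0.0903, -0.120, -0.109 and -0.087 for Per1, Per2, Cry1 and Dbp at 6 months, -0.0583, -0.0381 and -0.0587 for Per2, Per3 and Dbp for age in WT, with 0.131 for the interaction of Cry1. Array weights gave -0.338 and -0.0874 for Arntl between genotypes at 6 and 24 months, with 0.101 for the interaction of Cry1. Leaving out 1 mouse gave -0.0081 to 0.354 for Per1, -0.149 to 0.391 for Per2, -0.0288 to 0.293 for Cry1 and -0.0605 to 0.281 for Dbp at 6 months, -0.0035 to 0.282 for Arntl at 24 months, -0.148 to 0.391 for Per2, -0.0236 to 0.368 for Per3 and -0.0946 to 0.260 for Dbp for age in WT, with -0.229 to 0.0926 for the interaction of Cry1. The cause was not tested. The r of Dbp with Arntl was -0.57 as deposited and -0.80 after median-of-ratios scaling. Without the 2 farthest mice it was -0.247 as deposited and was not taken after scaling.

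Over all genes, 4767 were called at 6 months (4645 higher, 122 lower), 1790 after median-of-ratios scaling (708 and 1082), 1584 after rescaling without mitochondrial genes and 2485 by Dunn's test. With age in WT 2669 were called (2555 and 114), 1038 after median-of-ratios scaling (472 and 566), 1052 after rescaling, 6531 with array weights and 0 by Dunn's test. The 67 calls for genotype at 24 months (46 higher, 21 lower) became 44 higher and 53 lower after median-of-ratios scaling, 43 with no filter, 33 with no variance trend, 254 with array weights, 8 from only the groups compared and 0 by Dunn's test, and the 669 for age in UBR4 mKO (260 and 409) became 1197 after median-of-ratios scaling (634 and 563), 1743 with array weights, 439 from only the groups compared and 0 by Dunn's test. The 500 for the interaction (13 higher, 487 lower) became 299 with no filter, 211 after median-of-ratios scaling (108 and 103), 214 after rescaling and 2861 with array weights. With 1 mouse left out the 5 counts over all genes ran from 2737 to 6239 for genotype at 6 months, 8 to 66 at 24 months, 974 to 4973 for age in WT, 374 to 774 in UBR4 mKO and 187 to 2491 for the interaction. Same-numbered mice correlated at -0.155 to 0.181, and 4 of 16 pairs were over 0.1. Differently numbered mice correlated at -0.234 to 0.239. The replicate numbers thus showed no pairing in this measure, and other ties between mice were not tested. A fit with the replicate number as a block gave 0, 0, 1 (Cry2), 0 and 0 clock genes in the 5 comparisons and 4236, 38, 2023, 532 and 284 genes in all. Of the further genes, Bhlhe41 lost its call at 6 months in 2 and with age in WT in 1 of 28 alternatives, and of the other calls with age in WT Ciart lost its own in 9, Bhlhe40 in 7 and Dnajb1 in 22. Timeless lost its call at 6 months in 15. Adjusted p-values over the alternatives ran from 0.0134 to 0.179 for Hlf at 6 months, and with age in WT from 0.00337 to 0.167 for Ciart and 0.000144 to 0.133 for Bhlhe40. Dunn's test and the fit of only the groups compared were not run for the interaction.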
